A study of Mus musculus with 10 samples.

Results

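The major histocompatibility complex (MHC) genes of the mouse and the genes that load their products with peptide were followed in bulk RNA-seq of 10 livers. Members were the rows whose gene name begins with H2-, the mouse MHC prefix, together with B2m, Tap1, Tap2, Tapbp, Tapbpl, Nlrc5, Ciita and Cd74. The rule used names only and found 41 genes of the 31218 in the deposited table: 21 class I chains, 10 class II chains, 8 processing genes, H2-Ke6 and H2-M6-ps. Classes were set by name, so the class I chains include H2-T-ps and the class II chains include H2-Ea, named H2-Ea-ps in GENCODE M21. The ending -ps, as in H2-M6-ps, marks a pseudogene. H2-Ke6 carries the prefix because of its place in the complex. It encodes a hydroxysteroid dehydrogenase, also named Hsd17b8, and is no antigen-presenting chain. Of the 41 members, 36 lie on chromosome 17. B2m lies on chromosome 2, Tapbpl on chromosome 6, Nlrc5 on chromosome 8, Ciita on chromosome 16 and Cd74 on chromosome 18.

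The study removed Me1, the gene of the cytosolic malic enzyme, from hepatocytes only and kept floxed littermates as wild-type controls. The 5 control livers are labelled flox/flox at Me1 and are called Flox here. The 5 knockout livers carry the label Me1 Alb/Alb and are called HKO. All mice ate a high-fat diet for 16 weeks before the liver was taken, so there is no group on another diet. Sex, age, litter and batch are not labelled, and the line that deletes Me1 is given no further than by the genotype label. Each group's livers carry numbers from 1 to 5 by their place in the sample list, and values below always run from liver 1 to liver 5.

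Class I molecules sit on nearly every nucleated cell and show peptides from inside that cell to CD8+ T cells. A class I heavy chain, such as H2-K1 or H2-D1, pairs with the light chain B2m. Peptides reach it through the transporter made by Tap1 and Tap2, with tapasin (Tapbp) holding the empty molecule at the transporter, and Nlrc5 is the transactivator of class I genes. Class II molecules are made mainly by dendritic cells, B cells and macrophages and show peptides from endocytosed material to CD4+ T cells. Their alpha and beta chains are guarded by the invariant chain Cd74, peptides are exchanged with the help of H2-DM, H2-O holds H2-DM in check, and Ciita is the transactivator. In liver, class I is found on hepatocytes as well as on the other cells, while class II is mostly a property of Kupffer cells, dendritic cells and other leukocytes.

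Me1 was read first as a check of the labels. Its level was 52.1, 36.7, 37.6, 33.2 and 37.3 in Flox and 4.91, 5.08, 4.69, 4.91 and 6.15 in HKO, where a level is the deposited FPKM, a fragment count per gene length and library size, put on a common scale across livers. No HKO liver reached the lowest Flox liver, and the log2 fold change was -2.93 (SE 0.13, adjusted p = 8.48e-07 by edgeR's quasi-likelihood test). Libraries held 52790000 to 60765120 estimated counts. HKO 4 and HKO 5 stand apart: the summed level of 5 epidermal genes was 100 and 109 there and at most 2.09 in the other 8 livers, and that of 5 skeletal muscle genes was 91.4 and 103 against at most 2.66. The fits were therefore repeated without those libraries, which leaves 3 HKO livers, and the fold changes of the members and lists described in full are given both ways. In whole tissue, fewer cells of a type and less RNA per cell cannot be told apart.

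The stretch before the transcription start is where the known control elements of MHC genes sit, so promoters of 8 class I and class II chains are shown here. These are a choice among the members, and that of H2-Ke6 is not printed. RefSeq sequences (GRCm38.p6) from 250 bases before to 50 bases after the start were matched by symbol for 26 of the 41 members. Capitals mark exact matches, on either strand, to 4 short words: GATTCCC (the end of a κB-like site), TGACG (as in the X2 box), CCAAT (as in the Y box, ATTGG on the other strand) and GAAACT (as in sites for interferon regulatory factors, AGTTTC on the other strand). Each sequence reads 5′ to 3′ along the gene.
H2-K1 (chr17:34000298-34000597, minus strand): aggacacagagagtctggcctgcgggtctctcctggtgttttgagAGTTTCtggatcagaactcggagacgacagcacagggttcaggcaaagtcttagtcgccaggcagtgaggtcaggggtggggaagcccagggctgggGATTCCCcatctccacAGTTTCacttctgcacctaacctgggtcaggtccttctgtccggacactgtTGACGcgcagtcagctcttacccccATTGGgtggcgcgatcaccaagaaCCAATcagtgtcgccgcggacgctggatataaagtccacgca
H2-D1 (chr17:35262844-35263143, plus strand): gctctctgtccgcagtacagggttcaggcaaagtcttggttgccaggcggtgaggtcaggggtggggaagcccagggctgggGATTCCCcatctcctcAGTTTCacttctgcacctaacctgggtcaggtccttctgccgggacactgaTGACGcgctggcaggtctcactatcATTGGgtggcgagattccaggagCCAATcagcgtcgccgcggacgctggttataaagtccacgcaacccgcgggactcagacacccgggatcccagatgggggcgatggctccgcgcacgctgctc
H2-Q6 (chr17:35424600-35424899, plus strand): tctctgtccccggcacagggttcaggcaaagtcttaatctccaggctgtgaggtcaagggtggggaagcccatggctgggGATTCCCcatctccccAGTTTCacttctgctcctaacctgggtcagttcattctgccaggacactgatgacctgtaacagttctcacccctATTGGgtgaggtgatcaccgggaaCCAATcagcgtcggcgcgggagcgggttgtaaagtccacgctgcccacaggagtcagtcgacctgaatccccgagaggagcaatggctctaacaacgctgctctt
H2-Q7 (chr17:35438905-35439204, plus strand): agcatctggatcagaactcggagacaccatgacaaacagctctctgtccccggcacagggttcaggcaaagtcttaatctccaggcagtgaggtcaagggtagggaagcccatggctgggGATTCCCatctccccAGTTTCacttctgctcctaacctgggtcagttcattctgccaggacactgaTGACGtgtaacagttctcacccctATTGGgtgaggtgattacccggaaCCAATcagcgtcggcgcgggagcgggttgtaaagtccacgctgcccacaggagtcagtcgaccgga
H2-Q10 (chr17:35469839-35470138, plus strand): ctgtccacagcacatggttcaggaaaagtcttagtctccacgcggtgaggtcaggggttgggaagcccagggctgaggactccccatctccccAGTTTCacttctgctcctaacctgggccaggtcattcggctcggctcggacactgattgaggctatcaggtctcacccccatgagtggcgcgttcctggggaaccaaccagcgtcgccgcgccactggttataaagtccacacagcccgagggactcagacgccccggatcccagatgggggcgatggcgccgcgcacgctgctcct
H2-T23 (chr17:36032652-36032951, minus strand): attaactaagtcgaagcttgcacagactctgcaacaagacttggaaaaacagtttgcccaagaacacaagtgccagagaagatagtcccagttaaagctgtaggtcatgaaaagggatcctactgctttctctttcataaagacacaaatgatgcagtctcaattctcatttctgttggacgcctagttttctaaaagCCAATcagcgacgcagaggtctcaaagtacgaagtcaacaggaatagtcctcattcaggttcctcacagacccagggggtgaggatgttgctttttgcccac
H2-Aa (chr17:34287774-34288073, minus strand): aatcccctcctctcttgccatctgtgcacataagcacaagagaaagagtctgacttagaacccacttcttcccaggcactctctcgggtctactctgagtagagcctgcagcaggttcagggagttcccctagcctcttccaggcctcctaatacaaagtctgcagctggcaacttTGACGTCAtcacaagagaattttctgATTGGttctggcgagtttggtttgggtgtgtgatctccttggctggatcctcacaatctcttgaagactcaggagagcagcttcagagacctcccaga
H2-Eb1 (chr17:34305617-34305916, plus strand): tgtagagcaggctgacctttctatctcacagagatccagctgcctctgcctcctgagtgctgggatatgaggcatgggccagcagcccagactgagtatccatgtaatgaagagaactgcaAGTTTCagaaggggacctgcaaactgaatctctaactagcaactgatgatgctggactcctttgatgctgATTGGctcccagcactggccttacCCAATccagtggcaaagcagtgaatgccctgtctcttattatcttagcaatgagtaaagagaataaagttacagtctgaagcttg
GATTCCC stands in 3.36% of the 32851 RefSeq promoters of this length, and among the 8 printed it was found in H2-K1, H2-D1, H2-Q6 and H2-Q7. Over all chains with a promoter sequence it stood in 2 of 2 classical and 3 of 12 other class I promoters. For class II it stood in 0 of 3 classical and 0 of 5 other promoters. Several class I promoters are alike in sequence, so these matches are not independent. TGACG is held by 20.8% of all promoters, CCAAT by 37.4% and GAAACT by 15.8%. Of these words H2-Q10 held only GAAACT in this window, although 84.8% of its 231 aligned bases matched H2-K1 and 80.8% of 255 matched H2-Q7. H2-Q6 and H2-Q7 shared 97.7% of 260 aligned bases, and H2-K1 and H2-D1 88.3% of 239. In H2-Aa TGACG matched on each strand, with an overlap; no other words overlap in the printed sequences. H2-T23 held CCAAT alone. A match is a description of letters and no test of binding.

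Across the fit over 18065 genes, 35 members could be tested and 6 were too low. None of the 35 was called higher in HKO and 3 were called lower: H2-Q7, H2-T23 and H2-Ke6. A call is an adjusted p under 0.05 in edgeR's quasi-likelihood test, with adjustment by Benjamini and Hochberg over all genes tested. Of all genes tested, 11.3% were called, 4.86% higher and 6.4% lower. Of all calls 43.2% were higher, and 90.4% were without scaling factors. The members' 8.57% called lower is near that background, and so is no result about the members. At an unadjusted p under 0.05 there were 8 of the 35, or 22.9%, against 27.4% of all genes tested. HKO and Flox livers did not overlap for 2 members, H2-Q7 and H2-Ke6, both with HKO below; 6.49% of all genes tested had every HKO liver below every Flox liver and 4.41% had every HKO liver above. The median log2 fold change was -0.03 over the 35 members and 0.02 over all genes tested. With HKO 4 and HKO 5 left out none of these 3 genes passed the threshold and H2-Q1 passed it upward, where 5.36% of all genes were called, 2.45% higher and 2.91% lower. DESeq2, with all livers, called 5 members lower and 1 higher, where it called 7.49% of all genes lower and 8.53% higher.

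**Figure D1:**
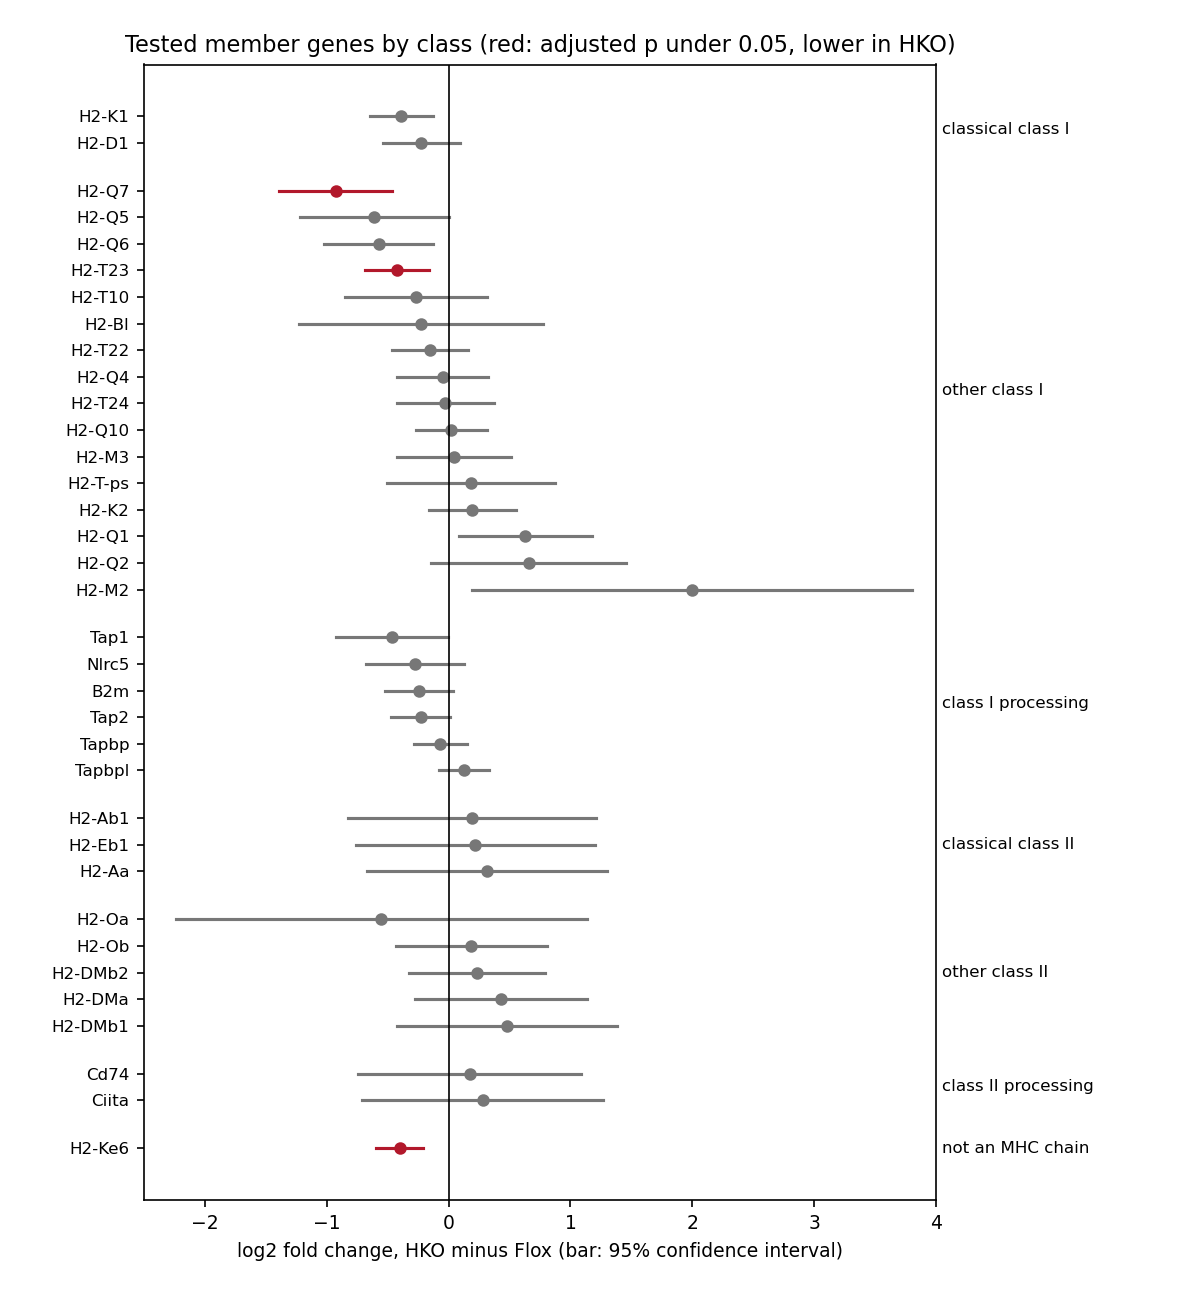
Log2 fold change (HKO minus Flox) of the 35 tested members on the x axis, by class, with bars for the 95% confidence interval of the edgeR fit and red for the 3 genes called lower. H2-Q7, H2-T23 and H2-Ke6 lie left of 0, and the class II chains have long bars that cross 0.

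By class, 2 of 18 tested class I chains were called lower and none higher. Over all genes tested 6.4% were called lower and 4.86% higher, so 2 calls are no result about the class. The class I chains had a median log2 fold change of -0.10. None of the 8 tested class II chains was called, and their median was 0.225. None of the 8 processing genes was called, with medians of -0.235 over the 6 that serve class I and 0.225 over Cd74 and Ciita. For class I chains 11 of 18 fold changes were below 0 and for class I processing genes 5 of 6. For class II chains it was 1 of 8, and over all genes tested 8674 of 18065. These signs depend in part on how libraries are scaled: without scaling factors the median of all genes shifted to 0.25, and the medians became 0.12 for class I chains, 0.44 for class II chains and 0.08 for all processing genes. Relative to the median of all genes in the same fit, class I chains stood at -0.12 with TMM and at -0.12 without scaling factors, and class II chains at 0.21 and 0.20; dropping the factors moves all genes about alike, so these values could hardly differ. Other settings moved them: class I chains stood at -0.04 with quantile normalization, -0.02 in limma on log2(FPKM + 0.5) and 0.01 without Flox 3, and class II chains at 0.46, 0.44 and 0.78. The values were -0.05 and 0.34 without HKO 4 and HKO 5. No test of a class against the other genes was made, and the classes were not tested against each other.

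The class I chain with the highest level was H2-Q10, which encodes a class I molecule that the liver secretes. H2-Q10 stood at 550, 402, 426, 377 and 416 in Flox and 485, 507, 466, 327 and 419 in HKO. The groups overlapped throughout, with the highest value in Flox 1 and the lowest in HKO 4, and the log2 fold change was 0.02 (SE 0.13, adjusted p = 0.939). Its 95% confidence interval ran from -0.27 to 0.31. The log2 fold change was 0.17 without HKO 4 and HKO 5 and ran from -0.03 to 0.12 over the fits that left out a liver. With quantile normalization in limma-voom the same gene passed the threshold upward, at 0.47 (adjusted p = 0.0357).

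The classical chains H2-K1 and H2-D1, which present peptides to CD8+ T cells in this species, came next. H2-K1 (chromosome 17, 33996017 to 34000347 as the deposited table gives it) was at 402, 365, 495, 319 and 345 in Flox against 331, 292, 312, 274 and 263 in HKO. Flox 3 was highest, and 4 of the 5 HKO livers lay below every Flox liver, with HKO 1 inside the Flox range. The log2 fold change was -0.39 (SE 0.12), at an adjusted p of 0.0556 in edgeR, so the gene was not called. DESeq2 called it, at an adjusted p of 0.0231, as did edgeR without Flox 4, at 0.0449. Over the 10 fits that each left out a liver the adjusted p ran from 0.0449 to 0.134, and without HKO 4 and HKO 5 it was 0.244 at a log2 fold change of -0.30. H2-D1 had levels of 247, 194, 295, 180 and 178 in Flox and 208, 181, 212, 167 and 168 in HKO. Again Flox 3 was highest and the groups overlapped. The log2 fold change was -0.22 (SE 0.14, adjusted p = 0.350), and it was 0.05 with quantile normalization and 0.02 in limma on log2(FPKM + 0.5). It was -0.09 without Flox 3 and -0.12 without HKO 4 and HKO 5.

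H2-Q7 encodes a Qa-2 molecule, a nonclassical class I protein. H2-Q7 had levels of 12.5, 16.6, 24.6, 12.4 and 11.5 in Flox and of 8.86, 6.75, 8.82, 9.65 and 6.73 in HKO. Every HKO liver lay below every Flox liver. The gene (chromosome 17, 35439155 to 35443773) fell 1.9-fold, a log2 fold change of -0.93 (SE 0.21, 95% confidence interval -1.40 to -0.46, adjusted p = 0.0197). Of the 10 fits that left out a liver 9 kept the call, and without HKO 5 the adjusted p was 0.0588. Without HKO 4 and HKO 5 the log2 fold change was -0.93, with an adjusted p of 0.0949. Without scaling factors it was -0.71, with an adjusted p of 0.0514. Of 10 settings with another scaling, tool or filter, or without HKO 4 and HKO 5, 6 kept the call.

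H2-Q6, the neighbour of H2-Q7 and also a Qa-2 gene, stood at 17.5, 18.2, 25.6, 13.1 and 11.6 in Flox and 12.8, 9.25, 11.8, 13.9 and 10.01 in HKO. Its groups overlapped, with 2 HKO livers below all Flox livers, and the log2 fold change of -0.57 did not pass the threshold (SE 0.20, adjusted p = 0.0957). It was -0.60 without HKO 4 and HKO 5. Of 10 settings with another scaling, tool or filter, or without those libraries, 1 called H2-Q6. Their transcripts are alike: 9.7% of the 150-base windows of the H2-Q7 transcript also occur in another gene, 8.4% in H2-Q6, in GENCODE M21. The sources used here do not say how reads shared between such genes were counted, so the split between H2-Q6 and H2-Q7 is uncertain. Summed over both genes, the level was 30.0, 34.8, 50.2, 25.5 and 23.1 in Flox and 21.7, 16.0, 20.7, 23.5 and 16.7 in HKO. Of the HKO sums 4 lay below every Flox sum, and HKO 4 lay just above Flox 5. H2-Q5 had a log2 fold change of -0.61 (SE 0.28, adjusted p = 0.185); its Flox levels were 2.34 to 8.24 and its HKO levels 2.49 to 3.87.

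H2-T23 encodes the heavy chain of Qa-1, which shows leader peptides of other class I chains to receptors of natural killer cells. H2-T23 stood at 65.1, 59.0, 87.0, 65.9 and 55.1 in Flox and 51.3, 49.0, 55.9, 50.1 and 41.4 in HKO. HKO 3 lay just above Flox 5, and the other 4 HKO livers lay below every Flox liver. The gene (chromosome 17, 36029773 to 36032855) fell 1.34-fold, a log2 fold change of -0.42 (SE 0.12, adjusted p = 0.0441). This call is close to the threshold: 8 of the 10 fits that left out a liver lost it, with adjusted p from 0.0371 to 0.113, and only those without Flox 5 or without HKO 3 kept it. Without HKO 4 and HKO 5 the log2 fold change was -0.35 (adjusted p = 0.191), and without scaling factors it was -0.20 (adjusted p = 0.262). Of 10 settings with another scaling, tool or filter, or without HKO 4 and HKO 5, 4 kept the call.

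H2-Ke6, the dehydrogenase gene, stood at 23.1, 17.9, 18.8, 17.8 and 20.7 in Flox and 15.8, 15.1, 14.9, 12.9 and 15.7 in HKO. Every HKO value was below the lowest Flox value. The gene (chromosome 17, 34026033 to 34028060) fell 1.32-fold, a log2 fold change of -0.40 (SE 0.09, adjusted p = 0.0142). All 10 fits that left out a liver kept this call, while without HKO 4 and HKO 5 the log2 fold change was -0.36 and the adjusted p 0.0604. Of 10 settings with another scaling, tool or filter, or without HKO 4 and HKO 5, 6 kept the call. It was also lost without scaling factors and in limma on FPKM at both pseudocounts. In the annotation 20.8% of its transcript windows also occur in the overlapping gene model Gm20427.

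H2-Q1, a nonclassical class I gene, did not pass the threshold in the main fit with all livers. H2-Q1 stood at 9.0, 8.91, 8.52, 8.33 and 6.58 in Flox and 15.9, 16.0, 13.4, 5.46 and 13.2 in HKO. HKO 4 was the lowest of all 10 livers and the other 4 HKO livers lay above every Flox liver. The log2 fold change was 0.63 (SE 0.25, adjusted p = 0.131). Without HKO 4 and HKO 5 it was 0.87 with an adjusted p of 0.00343, and without HKO 4 alone it was 0.83 with an adjusted p of 0.00123. Of the 10 fits that left out a liver, 1 called the gene, the fit without HKO 4. The gene was also called in 4 of 10 settings with another scaling, tool or filter, or without HKO 4 and HKO 5. The call thus depends on HKO 4 and on the processing. H2-Q1 shares 4.6% of its transcript windows with other genes.

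**Figure D2:**
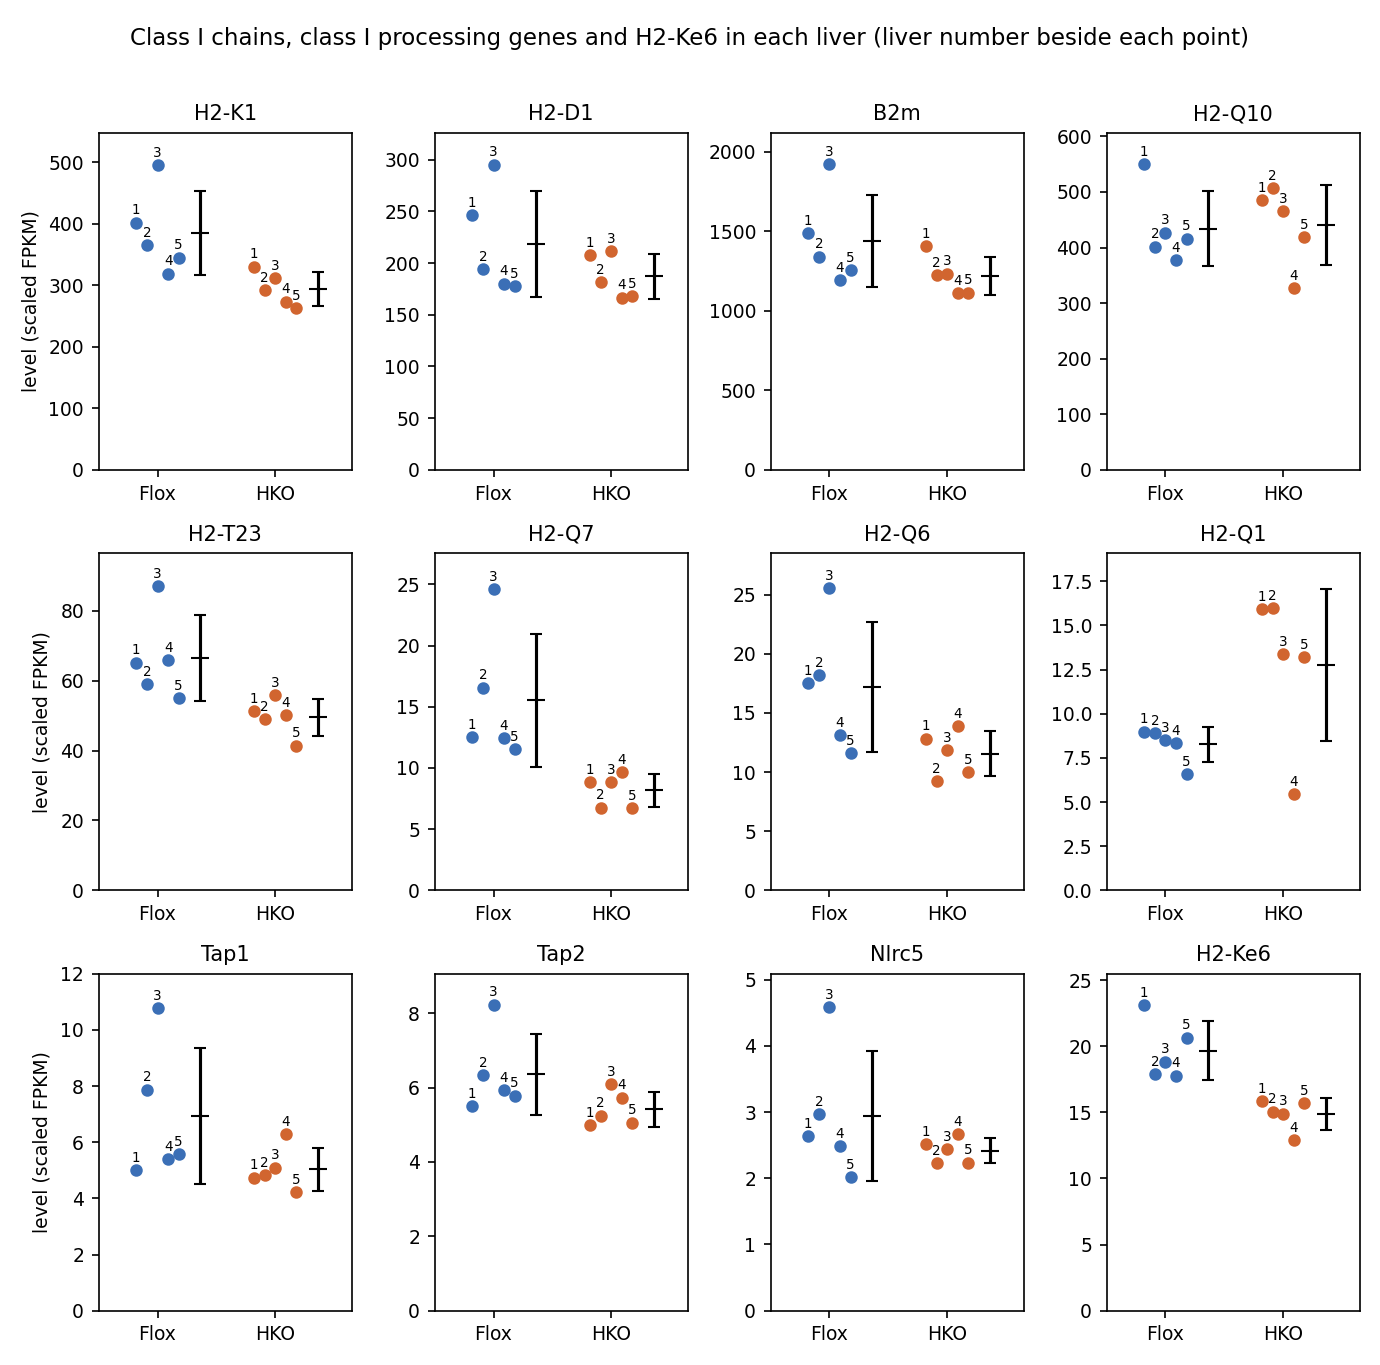
Level (scaled FPKM, y axis from 0) of 12 genes in each Flox (blue) and HKO (orange) liver, with the liver number beside each point and the mean ± SD (n = 5) in black. Flox 3 is the highest point for H2-K1, H2-D1, B2m, H2-T23, H2-Q6, H2-Q7, Tap1, Tap2 and Nlrc5, and all HKO points lie below the Flox points for H2-Q7 and H2-Ke6.

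The remaining 10 tested class I chains were not called in the main fit. H2-T22, a relative of H2-T10 that γδ T cells can recognise, ranged from 24.4 to 41.7 in Flox and from 23.6 to 29.2 in HKO, with a log2 fold change of -0.15 (SE 0.14). H2-Q4 ranged from 13.0 to 26.0 and from 15.4 to 19.7 (log2 fold change -0.05). H2-K2 ranged from 2.27 to 4.14 in Flox and from 3.78 to 4.88 in HKO, at a log2 fold change of 0.20. Those of H2-T10, H2-T24 and H2-M3, which presents formylated peptides, were -0.27, -0.03 and 0.04. H2-T-ps was at 0.18, H2-Bl at -0.23 and H2-Q2 at 0.66. H2-M2 had the highest fitted log2 fold change of the members at 2.00, but from 0 to 63 counts a liver and with an SE of 0.83 (adjusted p = 0.143). H2-M2 was called in 2 of 10 settings with another scaling, tool or filter, or without HKO 4 and HKO 5, and in 0 of 10 fits that left out a liver. The 6 members too low for a test had at most 22 counts in any liver. H2-M5 had counts in 5 livers, H2-M10 in 4, H2-M9 in 1, H2-Ea in 3, H2-Eb2 in 5 and H2-M6-ps in 7.

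The class I chains summed to 1364, 1118, 1451, 1029 and 1072 in Flox and to 1172, 1115, 1143, 901 and 974 in HKO. Flox 3 had the highest sum and HKO 4 the lowest, and 2 HKO livers lay below every Flox liver. The ratio of the HKO mean to the Flox mean was 0.879, and it was 0.948 without HKO 4 and HKO 5, 0.803 without H2-Q10 and 1.02 on FPKM as deposited. Most of this level came from 3 genes. H2-Q10 made up 36.2% ± 4.20 of the class I sum in Flox and 41.4% ± 3.35 in HKO (SD, n = 5 each). H2-K1 made up 31.9% ± 1.76 and 27.8% ± 1.6, and H2-D1 18% ± 1.43 and 17.6% ± 0.936. These shares come from the levels above and were not tested. In Flox 3 H2-Q10 had its lowest share, 29.4%, although its level of 426 there was inside the range of the other Flox livers.

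**Figure D3:**
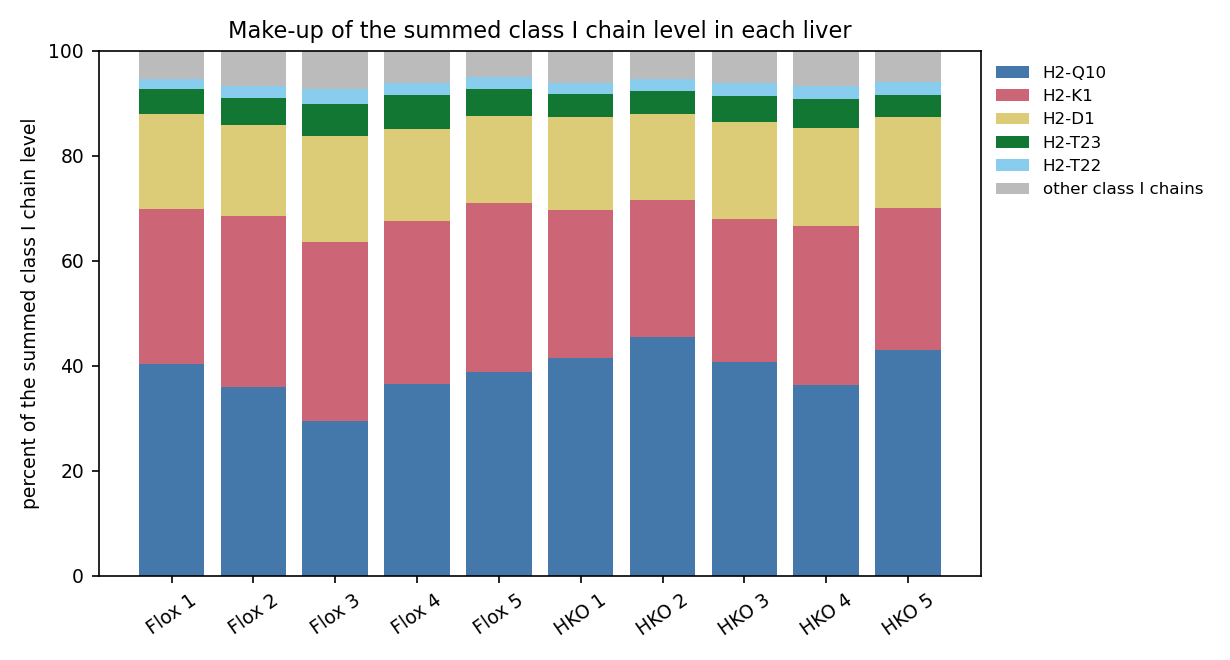
Percent of the summed class I chain level (y axis, 0 to 100) taken by H2-Q10, H2-K1, H2-D1, H2-T23, H2-T22 and all other class I chains in each of the 10 livers. H2-Q10 takes 29.4% in Flox 3 and 45.4% in HKO 2, the lowest and highest of the 10.

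Among the genes that serve class I, B2m had the highest level of all members. B2m was at 1488, 1341, 1921, 1194 and 1255 in Flox and 1409, 1225, 1234, 1112 and 1114 in HKO. The groups overlapped, Flox 3 was highest, and the log2 fold change was -0.24 (SE 0.13, adjusted p = 0.251). It was 0.13 with quantile normalization, -0.12 without Flox 3 and -0.16 without HKO 4 and HKO 5. B2m dominates the sum of all 8 processing genes, which also holds the class II genes Cd74 and Ciita. The ratio of the HKO to the Flox mean of that sum was 0.857 with B2m and 1.03 without it. Without B2m the gene with the highest level in the sum was Cd74, with means of 48.0 in Flox and 54.1 in HKO. Over the 6 genes that serve class I, with B2m, the ratio was 0.848. The ratio of B2m to H2-K1 ran from 3.64 to 3.88 in Flox and from 3.96 to 4.26 in HKO, without overlap, as a description that was not tested. It was the only one of the ratios formed between pairs of members whose groups did not overlap. Tap1 to Tap2, for example, ran from 0.909 to 1.31 in Flox and from 0.833 to 1.10 in HKO. How often ratios of other gene pairs separate the groups was not computed.

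Tap1, a subunit of the peptide transporter, had levels of 5.00, 7.87, 10.8, 5.40 and 5.58 in Flox and 4.74, 4.82, 5.10, 6.29 and 4.21 in HKO. Flox 2 and Flox 3 were above the rest, 3 HKO livers lay below every Flox liver, and the log2 fold change was -0.46 (SE 0.21, adjusted p = 0.182). It was -0.25 without Flox 3 and -0.50 without HKO 4 and HKO 5. Tap2, the other subunit, stood at 5.50, 6.33, 8.23, 5.94 and 5.78 against 4.98, 5.24, 6.09, 5.73 and 5.06. Its groups overlapped at a log2 fold change of -0.23 (SE 0.11, adjusted p = 0.203), and in limma on log2(FPKM + 0.5) the value was 0.003. It was -0.12 without Flox 3 and -0.22 without HKO 4 and HKO 5.

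Nlrc5, the class I transactivator, was at 2.63, 2.97, 4.58, 2.48 and 2.01 in Flox and 2.51, 2.23, 2.44, 2.66 and 2.24 in HKO. Flox 3 was far above the others and Flox 5 was lowest, with a log2 fold change of -0.28 (SE 0.18, adjusted p = 0.362). That value was -0.06 without Flox 3 and -0.29 without HKO 4 and HKO 5. The tapasin gene Tapbp had levels of 16.1, 16.7, 22.5, 18.3 and 15.7 in Flox and 17.0, 16.5, 19.2, 16.3 and 16.1 in HKO. Its log2 fold change was -0.07 (SE 0.10, adjusted p = 0.713) and 0.16 without scaling factors; it was 0.03 without Flox 3 and -0.02 without HKO 4 and HKO 5. Tapbpl, whose product TAPBPR edits class I peptides, stood at 6.54, 6.96, 7.99, 5.73 and 5.81 against 7.13, 6.82, 7.65, 7.27 and 7.16. The groups overlapped at a log2 fold change of 0.13 (SE 0.09, adjusted p = 0.427), which was 0.13 without HKO 4 and HKO 5 and 0.20 without Flox 3. Without scaling factors it was 0.35 and passed the threshold (adjusted p = 0.0479).

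Levels of the class II genes spread widely among livers of the same group, and the groups overlapped. Their coefficient of variation had a median of 63.5% in Flox and 28.3% in HKO over the 8 tested chains, against 19.5% and 16.9% over all genes tested. H2-DMb2 (22.5% in Flox and 26.9% in HKO), H2-Ob (29.0% and 31.5%) and H2-Oa (36.6% and 100%) varied more in HKO. The other tested chains varied more in Flox, where Flox 3 was the highest liver for each. H2-Aa, the alpha chain of I-A, stood at 8.37, 8.30, 19.9, 3.13 and 4.55 in Flox and 12.2, 7.35, 16.3, 8.81 and 10.3 in HKO. Flox 3 was highest, Flox 4 and Flox 5 were lowest, and all HKO livers lay between them. The log2 fold change was 0.31 (SE 0.44, 95% confidence interval -0.67 to 1.30, adjusted p = 0.703). It was 0.44 without HKO 4 and HKO 5 and 0.85 without Flox 3.

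H2-Ab1, the beta chain of I-A, had levels of 12.3, 11.5, 31.0, 4.11 and 6.72 in Flox and 16.8, 10.9, 20.8, 12.9 and 13.5 in HKO. H2-Eb1, the beta chain of I-E, was at 13.0, 13.3, 36.5, 5.90 and 7.88 in Flox and 20.04, 14.3, 25.1, 12.9 and 16.9 in HKO. In both, Flox 3 was highest, Flox 4 was lowest and all HKO livers lay inside the Flox range. The log2 fold changes were 0.19 (SE 0.46, adjusted p = 0.832) for H2-Ab1 and 0.22 (SE 0.44, adjusted p = 0.799) for H2-Eb1. They were 0.30 and 0.37 without HKO 4 and HKO 5, and 0.79 and 0.83 without Flox 3. H2-Ea, the gene of the alpha chain of I-E, is named as a pseudogene, H2-Ea-ps, in GENCODE M21. It had counts in 3 livers, at most 19.

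Cd74, the invariant chain, was at 44.0, 39.3, 111, 19.1 and 27.1 in Flox and 61.7, 42.7, 70.6, 47.9 and 47.6 in HKO. Flox 3 was highest and Flox 4 lowest, and the log2 fold change was 0.17 (SE 0.41, 95% confidence interval -0.74 to 1.09, adjusted p = 0.832), or 0.28 without HKO 4 and HKO 5. Ciita, the transactivator, had far lower levels, at 0.123, 0.171, 0.440, 0.105 and 0.0767 in Flox and 0.194, 0.123, 0.355, 0.231 and 0.211 in HKO. It ran from 46 to 267 counts a liver, with a log2 fold change of 0.28 (SE 0.45, adjusted p = 0.744). For Ciita this was 0.29 without HKO 4 and HKO 5 and 0.89 without Flox 3. These levels moved together: the ratio of Cd74 to H2-Aa stayed between 4.34 and 6.10 in all 10 livers, while the H2-Aa level itself ran from 3.13 to 19.9.

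The peptide-exchange chains had the highest fold changes among the class II chains, though neither was called. H2-DMa stood at 0.972, 0.751, 1.64, 0.439 and 0.453 in Flox and 1.41, 0.938, 1.24, 1.15 and 1.01 in HKO. H2-DMb1 was at 2.39, 1.86, 4.87, 0.753 and 1.48 in Flox and 3.42, 2.41, 4.68, 2.69 and 2.65 in HKO. Flox 3 was again highest for both and every HKO liver lay above Flox 2, Flox 4 and Flox 5. The log2 fold changes were 0.43 (SE 0.32, adjusted p = 0.430) for H2-DMa and 0.48 (SE 0.41, adjusted p = 0.499) for H2-DMb1. They were 0.49 and 0.62 without HKO 4 and HKO 5, and 0.80 and 0.96 without Flox 3. H2-DMb2 was at 0.23, and H2-Ob and H2-Oa, which encode the inhibitor H2-O, were at 0.19 and -0.55, the latter with an SE of 0.77 and at most 29 counts a liver. H2-Oa was at 0.02 without HKO 4 and HKO 5.

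**Figure D4:**
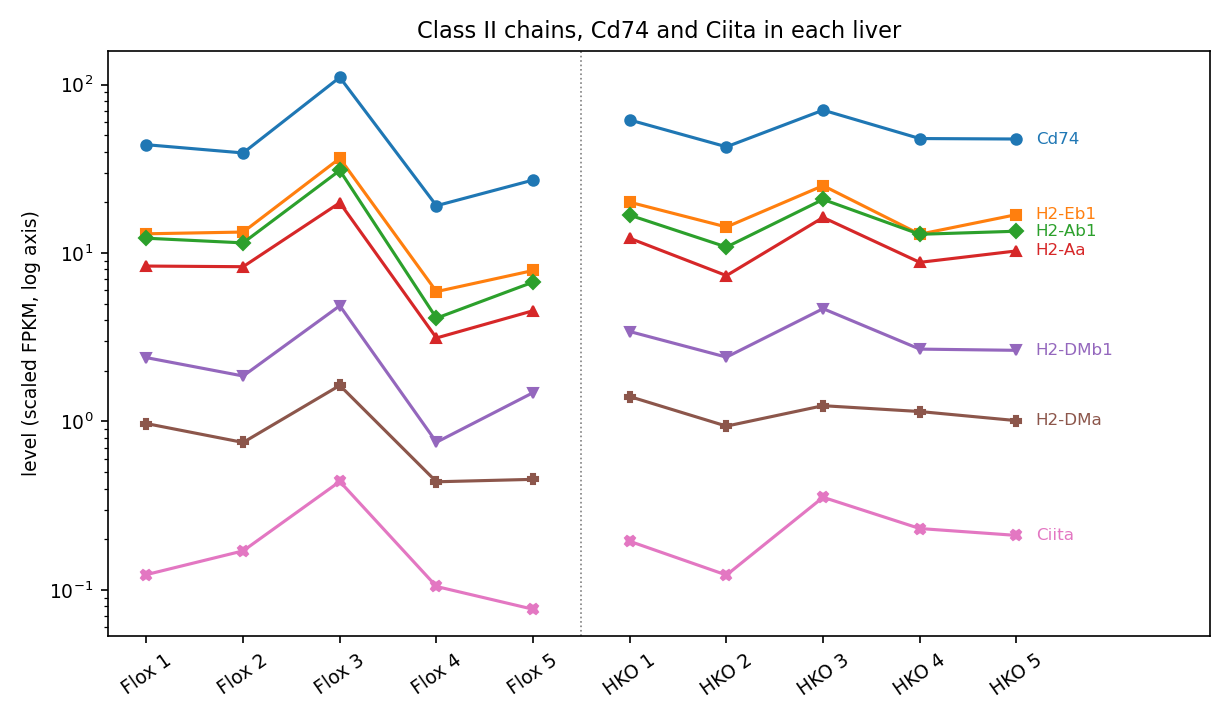
Level (scaled FPKM, log y axis) of Cd74, H2-Eb1, H2-Ab1, H2-Aa, H2-DMb1, H2-DMa and Ciita in each of the 10 livers; lines only link the points of a gene within a group. All 7 lines peak at Flox 3, and the HKO points spread less than the Flox points.

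Summed over the class, the class II chains reached 38.0, 36.7, 95.2, 15.5 and 21.8 in Flox and 54.6, 36.7, 69.7, 39.5 and 45.3 in HKO. The Flox livers spanned 6.13-fold and the HKO livers 1.9-fold. Much of the Flox span came from Flox 3, since the other Flox livers ran from 15.5 to 38.0. The ratio of the HKO to the Flox mean was 1.19, and it was 1.76 without Flox 3, 1.30 without HKO 4 and HKO 5 and 1.36 on FPKM as deposited. Leaving out Flox 3 raised the median log2 fold change of the class II chains from 0.225 to 0.80, while Cd74 stood at 0.74 with an adjusted p of 0.0950. No class II chain was called in any of the 10 fits that left out a liver. Flox 3 was the highest of all livers in each of 16 genes ranked, H2-Aa, H2-Ab1, H2-Eb1, Cd74, Ciita, H2-DMa, H2-DMb1, Tap1, Tap2, Nlrc5, B2m, H2-K1, H2-D1, H2-Q6, H2-Q7 and H2-T23. Over all 35 tested members it was the highest liver for 24: 11 of 18 class I chains, 5 of 8 class II chains and all 8 processing genes. Of the other 11 members, 3 were highest in Flox 1, 2 in HKO 2 and 6 in HKO 3.

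The transactivators were set against the genes they are known to act on, over all 10 livers and as log2(level + 0.1), in 14 pairs. Ciita went with the class II genes: Pearson's r was 0.88 with Cd74, 0.89 with H2-Aa and 0.82 with H2-DMa (Spearman's rho 0.92, 0.93 and 0.88). Over its 6 pairs the permutation p for r ran from 0.0007 to 0.00476, and adjusted over the 14 pairs by Benjamini and Hochberg it ran from 0.00361 to 0.00943 for r and from 0.00203 to 0.0341 for rho. Without Flox 3 and HKO 3, the livers farthest from the median of Ciita, r was 0.66 to 0.79 over those 6 pairs. Nlrc5 reached r of 0.75 with H2-K1, 0.81 with B2m and 0.87 with Tap1 (rho 0.50, 0.42 and 0.59), with adjusted permutation p of 0.0216, 0.0216 and 0.00868 for r and, for rho, of 0.200, 0.232 and 0.145. Without Flox 3 and Flox 5 its r was 0.62 with H2-K1, 0.88 with Tap1, 0.42 with B2m, 0.29 with H2-D1 and -0.06 with Tapbp, where it had been 0.81, 0.77 and 0.79 for the last 3, so the relation to B2m, H2-D1 and Tapbp rests largely on those livers. All values in a pair come from the same libraries, and no group holds the 6 livers needed for a value of its own. The permutations shuffled all 10 livers without regard to group. The part of cell content in these relations was not tested. Without HKO 4 and HKO 5 r was 0.89 for Ciita and Cd74 and 0.88 for Nlrc5 and Tap1.

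**Figure D5:**
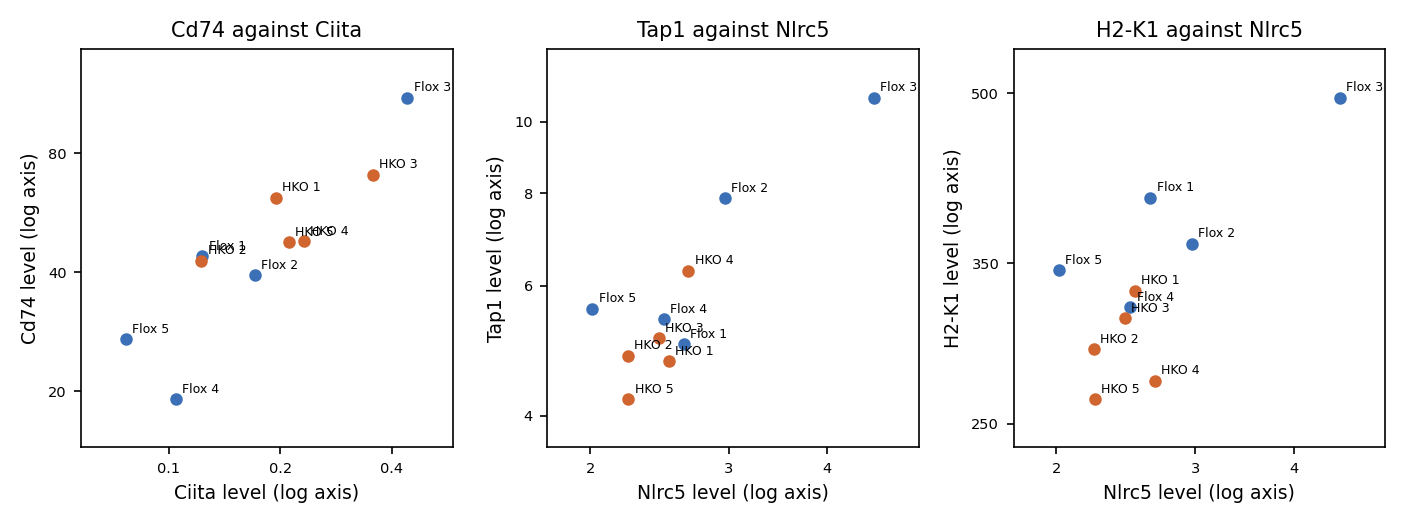
Levels (scaled FPKM, log axes) of Cd74 against Ciita, Tap1 against Nlrc5 and H2-K1 against Nlrc5 in the 10 livers, Flox in blue and HKO in orange. Cd74 rises with Ciita across both groups (r = 0.88), while Flox 3 lies alone at the upper right of the Nlrc5 panels.

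Genes that work beside the members were read from lists by role. Over all genes tested 4.86% were called higher and 6.4% lower, so a single call is no result about a list. Of 12 class I partners, which include the immunoproteasome and the chaperones of the loading complex, 1 was called lower and none higher. Their median log2 fold change was -0.245, and -0.269 without HKO 4 and HKO 5. The gene called was Calr, which encodes the chaperone calreticulin: 164, 177, 177, 222 and 227 in Flox against 129, 127, 143, 158 and 135 in HKO. HKO lay below Flox in every liver, at a log2 fold change of -0.48 (SE 0.11, adjusted p = 0.0143). The call held without HKO 4 and HKO 5, at -0.54 (adjusted p = 0.0338). The immunoproteasome genes Psmb8, Psmb9 and Psmb10 were not called. Of 14 tested class II partners 2 were called higher: the lysosomal proteases Ctsd, at 0.53 (SE 0.11, adjusted p = 0.0114), and Lgmn, at 0.63 (SE 0.15, adjusted p = 0.0246). In both, 4 of 5 HKO livers lay above every Flox liver. Without HKO 4 and HKO 5 Ctsd was at 0.63 and kept its call, Lgmn was at 0.70 and no longer passed the threshold with fewer livers (adjusted p = 0.0620), and the protease Ctsl gained a call, at 0.48 (adjusted p = 0.00910). Ctss, the protease that trims the invariant chain, was not called.

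In the interferon gamma list 1 of 9 genes was called, the receptor chain Ifngr1, at a log2 fold change of 0.45 (SE 0.13, adjusted p = 0.0390), and without HKO 4 and HKO 5 it was at 0.52 and not called (adjusted p = 0.0748). Of 7 class I-like genes outside the complex 1 was called lower, Azgp1, a secreted class I-fold protein, at -0.40 (SE 0.07, adjusted p = 0.00509). Without HKO 4 and HKO 5 Azgp1 was at -0.33 and kept its call (adjusted p = 0.0197). None of 5 tested costimulators and inhibitory ligands was called by edgeR. The single calls in these lists stand beside 4.86% higher and 6.4% lower over all genes tested. Cd274, which encodes PD-L1, had its highest level in Flox 3, at 4.31.

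Markers of other cell types differed between these livers as well. Over all genes tested 4.86% were called higher and 6.4% lower. Every HKO liver lay above every Flox liver for 4.41% of them and below for 6.49%. These shares are for single genes and not for sums, and a single call is no result about a list. The summed level of 4 leukocyte genes was 5.90 to 12.6 in Flox and 12.8 to 14.6 in HKO, without overlap, and 2 of the 4, Laptm5 and Coro1a, were called higher. For 8 dendritic cell genes the sum was 1.98 to 2.80 in Flox and 3.10 to 4.29 in HKO, again without overlap, with 1 called, Itgax. Of 8 genes of recruited macrophages 4 were called higher, Trem2, Cd9, Ccr2 and Cx3cr1. For 6 B cell genes 1 was called, Pax5, and for T and NK cells 1 of 6 was called lower, Cd4. Cd207, the langerin gene, stood at 0.236 to 1.03 in Flox and 1.697 to 3.07 in HKO, a log2 fold change of 1.80 (SE 0.35, adjusted p = 0.00799). Without HKO 4 and HKO 5, where 2.45% of all genes were called higher, none of the leukocyte, dendritic cell or B cell genes was called. In that fit 3 of the 8 recruited macrophage genes were called, and Cd207 was, at 1.91 (adjusted p = 0.0266). The fold changes that lost their call there were 0.76 for Laptm5, 0.64 for Coro1a, 1.70 for Itgax, 1.06 for Pax5 and 1.26 for Ccr2, against 0.72, 0.86, 1.56, 1.15 and 1.46 with all livers.

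The 6 Kupffer cell markers summed to 95.3, 70.2, 151, 46.7 and 51.1 in Flox and to 131, 100, 127, 95.0 and 104 in HKO, with Flox 3 highest, Flox 4 lowest and none of the 6 called. No marker of these leukocyte lists was at 0 in all livers. The sum of 5 hepatocyte genes was 33776 to 40813 in Flox and 23601 to 29512 in HKO, without overlap. HKO 5 and HKO 4 had the lowest sums, at 23601 and 25233. Alb dominates this sum, with means of 25784 in Flox and 20871 in HKO, and was not called (adjusted p = 0.0794 in edgeR). Groups did not overlap for Alb and Apoa1 but did for Tat, Cps1 and Ttr. The sum was not formed on FPKM as deposited, so its dependence on the scaling factors was not tested. Of the 5 genes 1, Apoa1, was called lower, where 6.4% of all genes tested were. The part of any of these lists in the class I and class II values was not tested.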

How the data were processed

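Liver samples, 5 of Flox and 5 of HKO mice, were profiled by paired-end RNA-seq of polyadenylated RNA with strand-marked libraries, per the labels' protocols. The deposited table holds estimated counts, which are whole numbers, and FPKM for every gene and liver, per the file headers. Tools named by the submitters' processing notes, with no role given, are StringTie 2.1.6, HISAT2 2.2.1, cutadapt 1.9, edgeR and DESeq2. The build, the treatment of reads shared between genes and the use of strand in counting are not given in the sources used here. Start, end and strand equal those of GENCODE M21 (GRCm38) for 35 of the 41 members, and coordinates are printed as deposited.

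The main test was edgeR 4.0.16 (R 4.3.3) on the estimated counts of all 10 livers: filterByExpr, TMM factors, and the robust quasi-likelihood test, two-sided, with Benjamini and Hochberg adjustment over 18065 genes. The code was checked on simulated data. Levels are the deposited FPKM set to each liver's total of counts and divided by its TMM factor (0.896 to 0.965 in Flox, 0.998 to 1.16 in HKO); the plan named only the division, and the added step moved levels by at most 0.0179 on the log2 scale. Standard errors and 95% confidence intervals come from the fit. Alternatives used DESeq2 1.42.0 and limma 3.58.1, other scalings, filters and FPKM pseudocounts of 0.5 and 0.1. Correlations used 100000 permutations.

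Members and lists were chosen with earlier results of these data known. Named with all values were the main class I, class II and processing genes, every other member called or with groups that do not overlap, and, added after their values were seen, H2-Q10, H2-Q6 and H2-Q1; in partner lists, the genes called, with Psmb8, Psmb9, Psmb10, Ctss, Ctsl and Cd274 also added after their values were seen. The values of 1 gene of these lists are not reported here. The labels list each liver as a separate sample and do not state that each is a separate mouse; p-values then measure only the spread between these samples, which may be technical. No replicate pair agreed within sampling noise (chi-square per degree of freedom at least 43.7). Precision is limited by the spread between livers and, for genes such as Ciita, H2-Oa and H2-M2, by counts.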

Additional observations from a re-analysis of the deposited data

Results flagged for a closer look

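In 76 groups of 5 livers, 35 tested members and 3 class sums in each genotype, the highest or lowest liver was examined for its gap to the nearest of the others, divided by the range of the group. In 9 groups this exceeded 0.71, the critical value for 5 samples, where chance gives about 1 in 20 groups. Genes of a class are not independent of each other here, since the same liver recurs.

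Flox 3 was the high liver in 5 of these groups. Cd74 stood at 111 in that liver against 44.0 in the next Flox liver, H2-Eb1 at 36.5 against 13.3, Ciita at 0.44 against 0.171, and the summed class II chains at 95.2 against 38.0. H2-T22, a class I gene, stood at 41.7 against 27.2. The 6 Kupffer cell markers also had their highest sum in this liver, at 151; their part in these values was not tested.

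In the other 4 groups the liver differed. H2-Q1 was lowest in Flox 5 at 6.58, where the next Flox liver was at 8.33, and among the HKO livers it was lowest in HKO 4 at 5.46, with the next at 13.2. HKO 4 is a library with epidermal and skeletal muscle transcripts, and their part in its H2-Q1 level was not tested. H2-K2 was lowest in Flox 1 at 2.27, against 3.61 in the next liver. H2-Q10 was highest in Flox 1 at 550, with the next Flox liver at 426.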

How the results depend on the processing

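No paired analysis was possible because Flox and HKO livers have different title numbers, and the labels give no litter, day or batch.

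Scaling changed the counts most. Without scaling factors 3620 of all genes were called higher and 386 lower, and limma on FPKM, which is not scaled either, gave 3212 and 396 at a pseudocount of 0.5 and 3253 and 396 at 0.1. By construction these fits leave the shift of the median of all genes in place, at 0.25, 0.14 and 0.21. Members called higher were then 2, 3 and 2, and lower 0 in each; class I chains called higher were 1, 2 and 1, and lower 0 in each; processing genes called higher were 1 in each. Partner genes called higher were 13, 12 and 12, and lower 1 in each, against 3 and 2 in the main fit. Upper quartile factors gave 6 partner genes higher. Quantile normalization gave 1 member, a class I chain, higher, 1 class I chain lower, and 7 partner genes higher and 0 lower. DESeq2 called 1629 of all genes higher, 5 members lower and 1 higher, with 4 and 1 among class I chains, and 7 partner genes higher. With no filter on low counts 1 class I chain was lower. Without HKO 4 and HKO 5 there were 454 genes higher and 539 lower, and 1 member, a class I chain, was higher and 0 lower in both counts. Apart from the shift, the cause of these changes was not tested.

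Leaving out each liver in turn gave 498 to 1058 genes higher and 691 to 1162 lower, 0 to 1 members higher and 1 to 3 lower, 0 to 1 class I chains higher and 0 to 2 lower, and 1 to 7 partner genes higher. The fewest members were called lower without HKO 5, and the member called higher without HKO 4 was H2-Q1.

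Of the 35 tested members 17 had a fold change of the other sign in some fit, and none was called in such a fit. In 14 this came with another scaling, tool or filter, or without HKO 4 and HKO 5. Among the genes named with all values these were B2m (0.126) under quantile normalization; H2-D1 under quantile normalization (0.0464) and in limma on FPKM (0.0194 at a pseudocount of 0.5 and 0.0195 at 0.1); Tap2 in limma on FPKM (0.00267 and 0.0035); and Tapbp without scaling factors (0.158), under quantile normalization (0.0308) and in limma on FPKM (0.16 and 0.164). The others were H2-Bl, H2-DMb2, H2-M3, H2-Oa, H2-Ob, H2-Q4, H2-T-ps, H2-T10, H2-T22 and H2-T24. In the fits that left out a liver 10 members crossed 0: Cd74 ran from -0.0316 to 0.739, H2-Ab1 from -0.0374 to 0.79 and Tapbp from -0.114 to 0.029, and the others were H2-Bl, H2-M3, H2-Q10, H2-Q4, H2-T10, H2-T22 and H2-T24. Class II chains gave 0 calls in every setting run. Their spread between livers, and counts of at most 63 for H2-M2, limit what these libraries can show.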
